A study of Mus musculus with 12 samples.

Results

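The genes of oxidative phosphorylation were taken as all probe sets annotated to a single gene whose symbol starts with Ndufa, Ndufb, Ndufc, Ndufs, Ndufv, Sdh, Uqcr, Cox4, Cox5, Cox6, Cox7, Cox8 or Atp5, or is Cyc1 or Cycs. This gave 75 genes on 103 probe sets, out of 8251 genes and 12422 probe sets on the array. Complex I held 31 of them, complex II 6, complex III with Cyc1 and Cycs 9, complex IV 15 and complex V 14. Of the 75 genes, 66 were bright enough to be tested. By function 5 of the tested genes are not subunits but assembly or accessory factors (Ndufaf1, Ndufaf4, Sdhaf1, Sdhaf2 and Cox7a2l), and they were kept with their complex.

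The values are MAS5 signals, a linear brightness per probe set, from lungs of A/J mice, an inbred strain without a transgene or deletion named in the labels. All 12 samples were controls given saline. The lungs were taken 24 to 26 weeks later on 5 arrays (AJ1, AJ2, AJ4, LZ2 and LZ3) and 42 weeks later on 7 (LZ22 to LZ25, then LZ61 to LZ63). The labels do not give the age at injection, and they do not say whether arrays came from separate animals. The p-values therefore reflect array-to-array spread, which may be technical.

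Oxidative phosphorylation is the last stage of respiration, carried out in the inner mitochondrial membrane. Complex I takes electrons from NADH and complex II takes them from succinate. Complex III passes them to cytochrome c, complex IV hands them to oxygen, and complex V, the ATP synthase, uses the resulting proton gradient to make ATP. Most subunits have 1 gene that every cell uses. A few subunits of complex IV have a separate isoform in heart and skeletal muscle: Cox6a2, Cox7a1 and Cox8b there stand in for Cox6a1, Cox7a2 and Cox8a, and Cox7a1 and Cox8b are also known from brown fat. Lung tissue contains such muscle because the pulmonary veins of the mouse carry a sleeve of heart muscle.

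One array, LZ63, stood apart before any group was compared. Spearman's rho across the tested probe sets was 0.887 to 0.929 for pairs with LZ63 and 0.925 to 0.979 for the other pairs. All 13 skeletal muscle markers on the list were measured, and their summed signal was 70223 on LZ63 and 1192.1 to 2152.3 elsewhere. Acta1, skeletal actin, read 20112.0 on LZ63 and 8.6 to 481.1 elsewhere. Ckm (85.1), Myh4 (27.2) and Myh2 (6.8) of that list were dim and not raised on LZ63, while the rest of the list was highest there. Krt4, a keratin of squamous epithelium, read 19799.4 on LZ63 and 209.3 to 384.0 elsewhere. Among the other squamous markers Sprr3 (7880.4) and Sprr1a (724.5) were also far higher there, and Krt14 and Krt6a were slightly higher. Krt13 (34.7), Krt5 (53.1) and Krt15 (6.4) lay within the range of the other arrays. LZ22 and LZ24 stood apart in the other direction: Myh6, the cardiac myosin, read 6.6 and 45.3 there and 732.0 to 4335.0 on the other arrays. The lung markers Sftpc and Scgb1a1 read at least 16226.6 on every array. On LZ63 4 other lung markers were at their lowest of the 12 arrays (Sftpb 10600.0, Ager 13102.8, Lyz2 7376.1 and Cav1 5104.2). The remaining lung markers measured did not share this. Sftpd, which was dim, was highest on LZ63 (78.3), and Pecam1 (167.2) lay within the range of the other arrays. The 4 ranges of title numbers (AJ1 to AJ4, LZ2 to LZ3, LZ22 to LZ25, LZ61 to LZ63) matched 4 days of hybridisation and scanning, each with 1 time point, so run day and title range cannot be told apart. Results are given with and without LZ63.

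Promoters of Cox7a1, Cox8b, Cox6a1 and Cox7a2 are shown because the muscle isoforms varied most between arrays. Of these only Cox7a1 and Cox7a2 are counterparts of each other. RefSeq's table (build GRCm38.p6) held a window from 250 bases before to 50 bases after the start for 61 of the 75 genes, among them Cox7a1 and Cox8b, and none for Cox6a2. Capitals mark matches to the motifs searched on both strands, which were the NRF-1 core CGCATGCG, the ETS or GABP core CCGGAAGT, the YY1 core AAGATGGC, the ERR half-site AAGGTCA, the E-box CAGCTG and the MEF2 consensus. In these windows matches of different motifs did not overlap.
Cox7a1 (chr7:30183921-30184220, plus strand): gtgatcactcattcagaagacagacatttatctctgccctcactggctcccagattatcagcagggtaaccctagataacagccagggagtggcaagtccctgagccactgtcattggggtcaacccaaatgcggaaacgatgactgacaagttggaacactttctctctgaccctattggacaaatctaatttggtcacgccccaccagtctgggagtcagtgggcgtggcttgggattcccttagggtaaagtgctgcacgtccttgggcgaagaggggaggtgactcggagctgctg
Cox8b (chr7:140900397-140900696, minus strand): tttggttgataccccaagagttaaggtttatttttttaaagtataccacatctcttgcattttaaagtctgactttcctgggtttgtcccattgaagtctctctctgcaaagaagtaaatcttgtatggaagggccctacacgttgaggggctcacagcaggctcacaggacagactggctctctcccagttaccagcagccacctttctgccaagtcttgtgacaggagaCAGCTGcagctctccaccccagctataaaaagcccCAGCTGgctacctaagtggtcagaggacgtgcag
Cox6a1 (chr5:115348909-115349208, minus strand): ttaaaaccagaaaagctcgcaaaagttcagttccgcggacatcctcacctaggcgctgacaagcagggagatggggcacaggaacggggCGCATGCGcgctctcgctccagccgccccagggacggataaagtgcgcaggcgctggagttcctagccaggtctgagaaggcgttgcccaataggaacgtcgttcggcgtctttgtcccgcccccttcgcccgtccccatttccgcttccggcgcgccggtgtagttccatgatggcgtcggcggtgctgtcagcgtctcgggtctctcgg
Cox7a2 (chr9:79759804-79760103, minus strand): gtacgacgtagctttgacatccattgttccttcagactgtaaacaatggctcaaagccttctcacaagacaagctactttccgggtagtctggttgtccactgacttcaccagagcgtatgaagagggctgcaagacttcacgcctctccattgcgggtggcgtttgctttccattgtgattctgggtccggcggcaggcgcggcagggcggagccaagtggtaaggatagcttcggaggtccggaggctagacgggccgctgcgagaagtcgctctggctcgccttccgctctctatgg

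The muscle isoform Cox8b held 2 copies of the E-box and 2 CG dinucleotides in its 300 bases, and Cox7a1 held none of the motifs and 7 CG dinucleotides. Cox7a2, the counterpart of Cox7a1, held 20 CG dinucleotides. Cox6a1, the counterpart of Cox6a2, held 32 and the NRF-1 core. The window of Cox8a, the counterpart of Cox8b, is not printed here, and it held the ETS core. Over the 59 member genes other than muscle isoforms the median was 19 CG dinucleotides, with Cox7b lowest at 5. The median was 7 over all 27025 genes in the table. The NRF-1 core was present in 10 of 61 member genes (16.4%), including Cycs, Uqcrc1 and Atp5g2, and in 2.07% of all genes. The YY1 core was present in 8 of 61 (13.1%) and in 3.19% of all genes. The ETS core was found in 6.56% of members and 4.31% of all genes, the ERR half-site in 8.2% and 5.38%, the E-box in 6.56% and 18.3%, and the MEF2 consensus in 0 members and 3.7% of all genes. These are matches of letters in a short window and say nothing about binding.

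The muscle isoforms of complex IV varied more between arrays than nearly all other members. The standard deviation of log2 signal over 12 arrays was 1.17 for Cox7a1, 0.93 for Cox8b and 0.73 for Cox6a2, the 3 highest of 66, and the other 63 members lay between 0.0919 and 0.56 with a median of 0.26. Without LZ63, Cox7a1 and Cox8b still ranked 1 and 2, with 0.91 and 0.62, and Cox6a2 ranked 7 with 0.39. Cox7a1 would not have been bright enough to be ranked on those arrays alone.

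Cox6a2 read 1283.2 on AJ1, 1465.9 on AJ2, 1447.5 on AJ4, 1345.3 on LZ2, 1347.2 on LZ3, 869.2 on LZ22, 1741.9 on LZ23, 716.5 on LZ24, 1493.6 on LZ25, 1583.7 on LZ61, 1016.4 on LZ62 and 5644.5 on LZ63. The 5 arrays at 24 to 26 weeks lay within a narrow band, while those at 42 weeks ran from well below it to well above it. Its lowest readings fell on LZ24 and LZ22, the arrays where Myh6 was lowest. Cox7a1 read 188.5 on AJ1, 119.7 on AJ2, 121.3 on AJ4, 56.4 on LZ2, 119.5 on LZ3, 53.6 on LZ22, 68.1 on LZ23, 32.2 on LZ24, 157.3 on LZ25, 284.3 on LZ61, 101.4 on LZ62 and 656.8 on LZ63. Several of these lie below the signal of 108 used as the limit for dim probe sets, where MAS5 values are noisy. The mean log2 signal of Cox7a1 passed that limit only with LZ63 included, the array where it was highest. Cox8b read 247.8 on AJ1, 313.3 on AJ2, 244.8 on AJ4, 249.9 on LZ2, 332.7 on LZ3, 166.9 on LZ22, 345.8 on LZ23, 332.8 on LZ24, 314.3 on LZ25, 955.8 on LZ61, 317.3 on LZ62 and 1748.7 on LZ63. Cox8b thus stood high on LZ61 as well as LZ63, and unlike Cox6a2 it was not low on LZ24 by this probe set. A dimmer second probe set of Cox8b, below the limit on average, ran from 23.2 on LZ22 to 192.5 on LZ63, with LZ61 second at 164.0. On LZ24 that second probe set read 34.2, among its lower values. In bulk tissue fewer cells of a type and less RNA per cell cannot be told apart.

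The counterparts did not share this pattern. Cox6a1 lay between 4693.8 and 7616.7 on the 12 arrays and Cox7a2 between 3909.7 and 4805.8. On LZ63 Cox6a1 read 6712.2, which is 0.957 times the median of the other 11 arrays, and Cox7a2 read 4661.9. Cox8a was too dim to be tested, at 7.6 to 46.9. Relative to its median over the arrays, the log2 ratio of Cox6a2 to Cox6a1 was 2.0 on LZ63, -0.63 on LZ22 and -1.16 on LZ24.

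**Figure D1:**
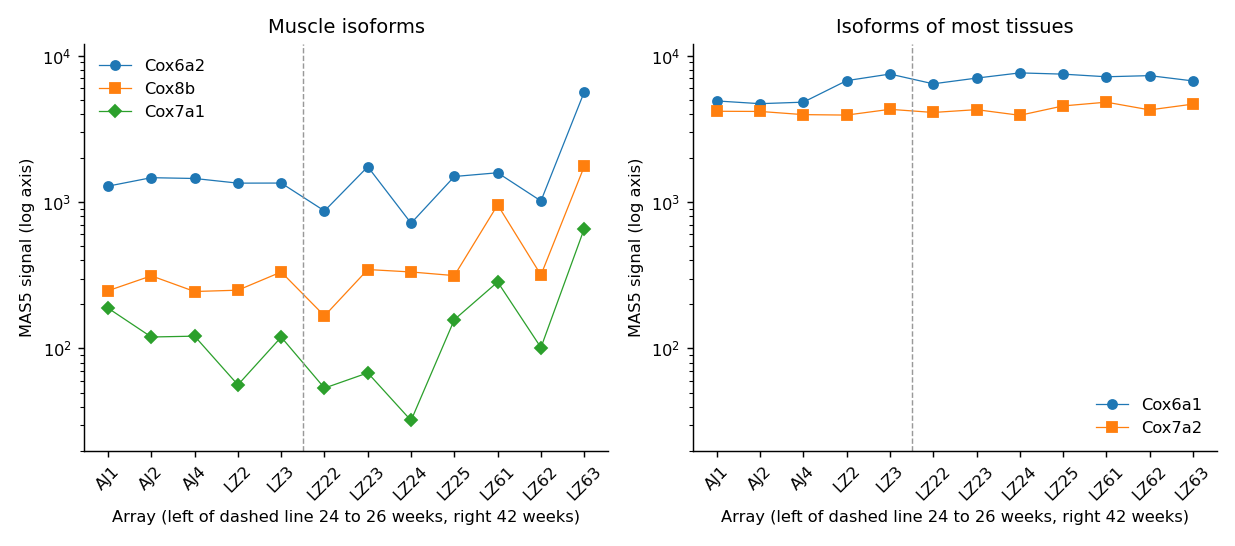
MAS5 signal (log axis) of the muscle isoforms Cox6a2, Cox8b and Cox7a1 (left) and of Cox6a1 and Cox7a2 (right) on each of the 12 arrays, with the dashed line between 24 to 26 weeks and 42 weeks; lines only join the points of a gene. The muscle isoforms peak on LZ63, where Cox6a2 reached 5644.5, while Cox7a2 stayed between 3909.7 and 4805.8.

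Markers of muscle and fat differed between the arrays where the muscle isoforms were high or low, but not all in the same way. The summed signal of the 12 cardiac markers, all measured, was 10687 to 22370 at 24 to 26 weeks, 3129.1 on LZ22, 2917.6 on LZ24, 29302 on LZ61 and 49834 on LZ63. The skeletal sum was high on LZ63 alone, and on LZ61 it was 1889.5, within the range of the other arrays. Of 6 brown fat markers 5 were measured, with a sum of 1138.1 on LZ61, 1036.2 on LZ63 and 218.1 to 437.9 elsewhere, LZ22 and LZ24 included. Cidea, a lipid droplet protein abundant in brown fat, read 771.7 on LZ61 and 640.3 on LZ63, against 12.1 to 156.6 elsewhere. Ucp1, the protein that defines brown fat, read 88.2 on LZ63, 78.9 on LZ61 and 21.8 to 58.7 elsewhere. It was under the limit for dim probe sets on every array. Adipoq, made by fat cells, read 1648.3 on LZ61, 1384.1 on LZ63 and 28.3 to 685.4 elsewhere. Over the 6 measured of 8 fat markers the sum was 5066.9 on LZ61, 5350.3 on LZ63 and 1839.6 to 3470.6 elsewhere, but Cd36 of that list was lower on LZ61 (428.0) and LZ63 (364.2) than on every other array except LZ62 (361.5). Their part in the levels of Cox6a2, Cox7a1 and Cox8b was not tested.

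The genes outside the members whose log2 signal followed each isoform most closely were picked as the highest Pearson correlations, as a description over arrays that share scaling and run days. The candidates were the tested genes, a set chosen with LZ63 included, also where the correlation left LZ63 out. Cox6a2 followed Myl1, a skeletal muscle myosin light chain, with r = 0.98 over 12 arrays and 0.94 over the 11 without LZ63. Myl1 was a candidate only through LZ63, so its place without that array is no independent repeat. Cox7a1 itself was also bright enough only through LZ63. The next over 12 arrays were Lum, Eef1a2, Sh3bgr and Pde4dip, and without LZ63 Ptgfr (0.98), Prom1, Myl4 and Ldb3 joined Myl1. Cox7a1 followed Art3 (0.94), Cpe, Ndrg2, Slc2a4 and Eef1a2, and without LZ63 Ndrg2 (0.91), Art3, Tpm2, Cpe and Aox1. Cox8b followed Gpd1 (0.91), Lsm4, Fam20c, Ifi27l2a and Glrx, and without LZ63 Ifi27l2a (0.88), Cd79a, Tmem134, Ift172 and Trim30a. Art3, Cpe and Ndrg2 were in both lists of Cox7a1, Myl1 in both of Cox6a2 and Ifi27l2a in both of Cox8b.

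Most other members were also at their highest on LZ63, but by a smaller factor and not evenly across complexes. By the brightest probe set of each gene, LZ63 was the highest of the 12 arrays for 53 of 66 members (80.3%), against 11.5% of all 5731 tested genes. Dimmer tested probe sets of Ndufa3, Ndufv2, Cyc1, Cox4i1 and Atp5d were not highest there, while those of Ndufb2 and Atp5c1 were. The median ratio of LZ63 to the median of the other arrays was 1.45 over the members and 0.925 over all genes. At least 1.5-fold higher signal was found for 26 of 66 members, against 7.22% of all genes; this fold was chosen after LZ63 was known to stand apart. With a single array these ratios have no test.

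Complex III was the most uniform by the brightest probe sets: LZ63 was highest for 9 of 9 members, with a median ratio of 1.66. The second tested probe set of Cyc1 differed, at 1318.9 on LZ63 and 1120.1 to 2092.9 elsewhere. Cycs, the soluble electron carrier, read 599.5 on LZ63 and 213.2 to 380.4 elsewhere. In complex I LZ63 was highest for 23 of 27 members, with a median ratio of 1.46. Ndufb8, an accessory subunit of the membrane arm, read 2869.9 against 955.6 to 1652.3, and Ndufab1, the mitochondrial acyl carrier protein, read 3365.7 against 1226.1 to 2523.2. In complex V it was highest for 10 of 11 members with a median ratio of 1.46. Atp5md, a small subunit of the ATP synthase dimer, read 6458.5 against 1618.6 to 3204.3. In complex II LZ63 was highest for 4 of 6 members, with a median ratio of 1.22.

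Complex IV had the lowest median ratio on LZ63 once its muscle isoforms were set aside, with complex II (1.22) close to it. The ratios of Cox8b, Cox7a1 and Cox6a2 were 5.56, 5.50 and 4.19, and Cox7a1 was bright enough to be tested only through LZ63. Of the 10 other complex IV members LZ63 was highest for 4, with a median ratio of 1.13. The members below 1 were Cox6a1 (0.957), the supercomplex factor Cox7a2l (0.858), the testis isoform Cox6b2 (0.745) and Cox8c (0.995), which is also known from testis. Outside complex IV the assembly factors Ndufaf4 and Sdhaf2 lay below 1. With 1 array the difference between complexes has no test.

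**Figure D2:**
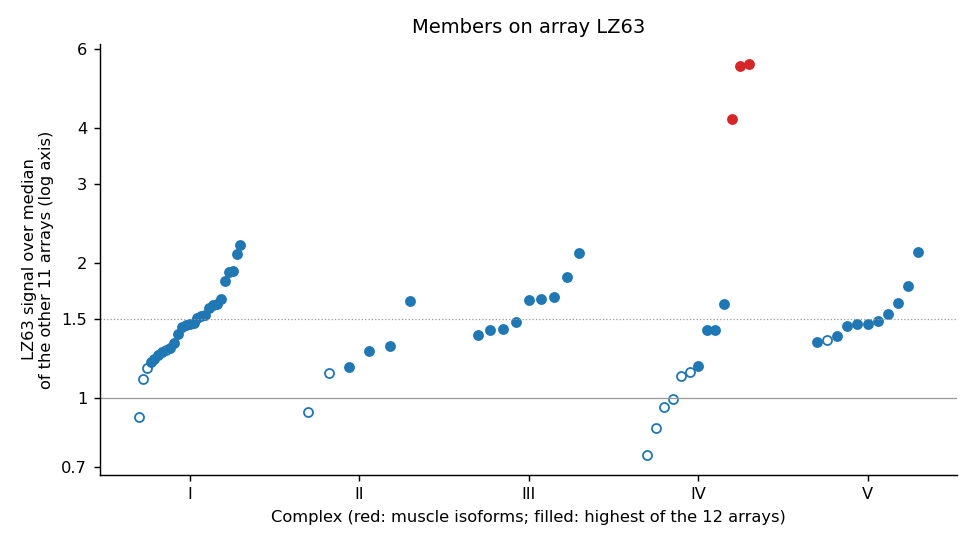
Signal on LZ63 divided by the median of the other 11 arrays (log axis) for each of the 66 tested members by complex; red points are the muscle isoforms, filled points are highest on LZ63 among the 12 arrays, open points are not, and the dotted line marks 1.5-fold. The muscle isoforms lie between 4.19 and 5.56, above all other members, and 53 of the 66 points are filled.

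On the other 11 arrays the members moved little together. The median over the 63 members without muscle isoforms, each relative to its own median over arrays, lay between -0.08 and 0.11 on the log2 scale on those arrays and was 0.50 on LZ63. For the muscle isoforms the same measure was -0.92 on LZ22, -0.96 on LZ24, 1.25 on LZ61 and 2.46 on LZ63, and -0.34 to 0.13 on the other 8 arrays.

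**Figure D3:**
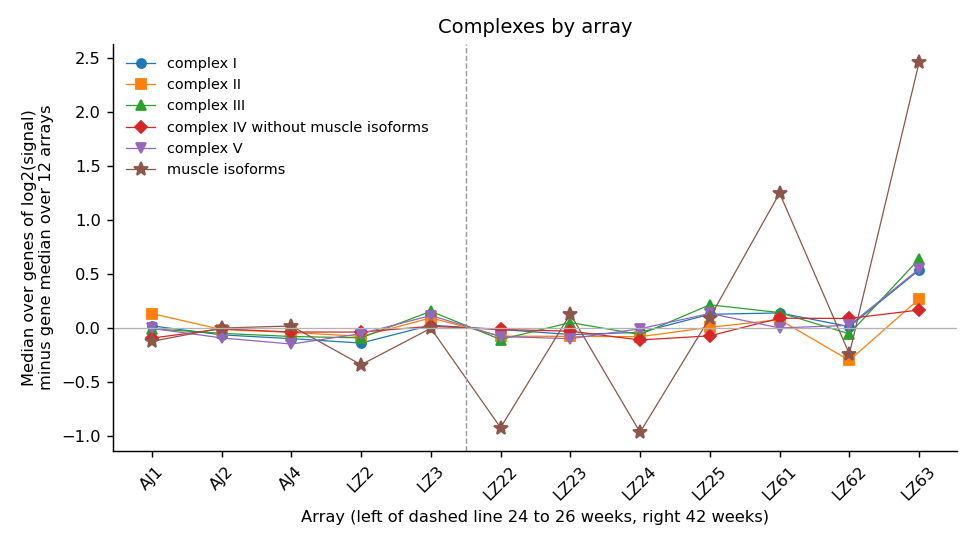
Median over the tested genes of each complex of log2 signal minus the gene's median over 12 arrays, for each array, with the dashed line between 24 to 26 weeks and 42 weeks; lines only join points of a group. Complexes I, III and V rise to 0.54, 0.64 and 0.55 on LZ63, and the muscle isoforms spread from -0.96 to 2.46.

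The first comparison was between 42 weeks and 24 to 26 weeks. No member passed the test (limma, adjusted p under 0.05), while over all genes 0.0174% were called higher and 0.0698% lower. At an unadjusted p under 0.05, 6 of 66 members were higher and 2 lower, against 4.76% and 9.56% of all genes. For 0 members did the groups lie apart without overlap in either direction, against 0.349% and 1.12% of all genes. The log2 difference was positive for 52 of 66 members, with a median of 0.12 against -0.04 over all genes. Without LZ63 it was positive for 41 of 66, with a median of 0.06.

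Complex I had positive differences for 24 of 27 members, with a median of 0.15, and 0.08 without LZ63. Ndufa7, an accessory subunit, read 4843.4, 4611.7 and 4726.6 on AJ1, AJ2 and AJ4, 6108.3 and 4875.1 on LZ2 and LZ3, 5776.7, 6844.9, 6311.5 and 7396.5 on LZ22 to LZ25 and 7010.2, 7882.1 and 7822.0 on LZ61 to LZ63. The means were 5033 ± 610 (SD, n = 5) and 7006.3 ± 775.2 (SD, n = 7), and the groups overlapped only through LZ2 and LZ22. The log2 difference of 0.48 with a standard error of 0.10 missed the threshold (limma, adjusted p = 0.0643) and was 0.45 without LZ63 (limma, adjusted p = 0.0835). Ndufb3, another accessory subunit, went the other way. It read 1696.9, 2082.9, 1593.0, 988.6 and 1741.6 on AJ1, AJ2, AJ4, LZ2 and LZ3, 1401.2, 967.2, 877.0 and 927.3 on LZ22 to LZ25 and 884.8, 647.2 and 1150.7 on LZ61 to LZ63. LZ2 was the only early array among the later values, and its difference came to -0.72 (log2, standard error 0.19) (limma, adjusted p = 0.122). Without LZ2 both passed, Ndufa7 at 0.55 (limma, adjusted p = 0.0268) and Ndufb3 at -0.89 (limma, adjusted p = 0.0326). Ndufb2 and Ndufb6 had differences of 0.38 and 0.33, neither of which passed (limma, adjusted p = 0.21 and 0.257).

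A second bright probe set of Ndufb2 gave a different result, with a log2 difference of -0.02, and both carry a suffix by which the array's design marks probes shared with other transcripts or chosen by relaxed rules. Such a suffix was on 19 of the 66 probe sets used, among them those of Cox6a1, Cox8b, Uqcrc2 and Atp5d, so their values may be shared with related sequences. Of 8 members with more than 1 tested probe set, Cyc1, Atp5c1 and Cox6b2 also differed in sign between probe sets. Cyc1, the haem protein of complex III, stood at 0.28 for its brighter probe set and -0.27 for the dimmer one. For Atp5c1 and Cox6b2 the gap was smaller.

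In complex II 2 of 6 members had positive differences and the median was -0.04. Sdhb, the iron-sulfur subunit, had a mean signal of 1926.3 ± 214 (SD, n = 5) at 24 to 26 weeks and 2388.7 ± 490.6 (SD, n = 7) at 42 weeks, a log2 difference of 0.29 (limma, adjusted p = 0.324). Sdha, the flavin subunit, differed by -0.13 (limma, adjusted p = 0.702). Sdhaf2, which attaches flavin to Sdha, read 410.7, 425.0 and 459.3 on the AJ arrays, 311.0 and 316.5 on LZ2 and LZ3 and 241.1 to 312.9 at 42 weeks. Its difference was -0.42 (limma, adjusted p = 0.172), and -0.15 with LZ arrays alone.

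In complex III 7 of 9 members were positive, with a median of 0.17 and 0.13 without LZ63. Uqcrh, the hinge protein that binds cytochrome c1, had the largest difference there, from 3006.6 ± 474.4 (SD, n = 5) to 3680.4 ± 555 (SD, n = 7), or 0.29 on the log2 scale (limma, adjusted p = 0.277). Cycs had the most negative, -0.10, and -0.27 without LZ63. In complex V 8 of 11 were positive with a median of 0.12, and 6 of 11 with a median of 0.03 without LZ63. Its range ran from Atp5mpl, a small membrane proteolipid, at -0.13 to Atp5d, the delta subunit of the catalytic head, at 0.24.

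With all arrays, the muscle isoforms of complex IV had the widest intervals of all members. Cox8b differed by 0.68 (95% interval -0.41 to 1.76), Cox6a2 by 0.09 (-0.83 to 1.02) and Cox7a1 by 0.08 (-1.37 to 1.54), and none passed the test (limma, adjusted p = 0.557, 0.95 and 0.972). Without LZ63 these became 0.35, -0.23 and -0.33. The other 10 complex IV members had a median of 0.07, and of 0.06 without LZ63. Cox6a1 was the one with the largest difference, 0.34 (limma, adjusted p = 0.237), and Cox7b the one with the most negative, -0.11.

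**Figure D4:**
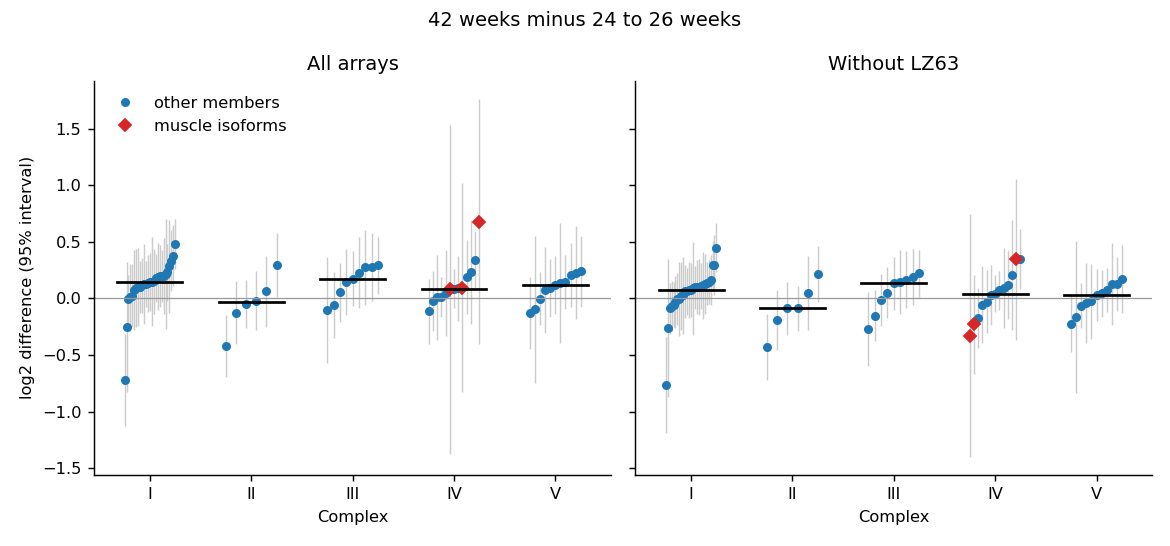
Log2 difference between 42 weeks and 24 to 26 weeks for each tested member by complex, with its 95% interval, from all 12 arrays (left) and without LZ63 (right); black bars are medians and red diamonds the muscle isoforms. Most points lie near 0 and none passed the test, and with all arrays the intervals of the muscle isoforms are the widest.

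Within 42 weeks, LZ61 to LZ63 were compared with LZ22 to LZ25, ranges that the labels do not explain. Of the members 1 was called higher and 0 lower, against 0.384% and 0.942% of all genes. At an unadjusted p under 0.05, 20 of 66 were higher and 0 lower, against 8.18% and 11.1% of all genes. The 2 groups did not overlap for 7 members, all higher, against 6.25% of all genes higher and 9.54% lower. The log2 difference was positive for 56 of 66 members with a median of 0.26, against -0.02 over all genes. Without LZ63 it was positive for 47 of 66, the median was 0.10 and 0 members were called, with 9 higher and 2 lower at an unadjusted p under 0.05 in limma. Over all 5731 genes that fit had 505 higher and 501 lower at this p, 7 and 13 called and a median of 0.015.

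The member called was Uqcrc2, a core protein of complex III. It read 1602.3, 1548.7, 1491.9 and 1872.2 on LZ22 to LZ25 and 2465.0, 2112.0 and 2665.1 on LZ61 to LZ63, so the groups lay apart. At 24 to 26 weeks it read 1468.9 to 1870.7, the same band as LZ22 to LZ25. On the log2 scale they differed by 0.57, with a standard error of 0.13 (limma, adjusted p = 0.0452), and by 0.49 without LZ63 (limma, adjusted p = 0.0931). The call held in 5 of 20 alternatives and was lost in 15, where the adjusted p of limma ran up to 0.211; of the arrays left out singly it held only without LZ62. Without LZ62, Cox8b, Ndufb9 and Uqcrq passed as well, but no count over all genes was made for that fit.

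By complex the medians were 0.27 for complex I, 0.12 for II, 0.27 for III, 0.13 for IV without muscle isoforms and 0.23 for V, where 11 of 11 members were positive. Without LZ63 they were 0.13, -0.05, 0.04, 0.14 and 0.10, with 6 of 11 positive in complex V. The members furthest up in each were Ndufaf4 (0.63, an assembly factor of complex I), Sdhaf1 (0.37, an assembly factor of complex II), Uqcrc2, Cox7a1 and Atp5md (0.64). The lowest were Ndufb3 at -0.24, Sdhaf2 at -0.12, Uqcr10 at -0.06, Cox6b2 at -0.19 and Atp5o, the stalk subunit that links head and membrane part, at 0.002.

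With all arrays the muscle isoforms had larger differences than any other member, but also larger errors. Cox7a1 differed by 2.02 with a standard error of 0.64, from 77.8 ± 55.01 (SD, n = 4) to 347.5 ± 283 (SD, n = 3), and did not pass (limma, adjusted p = 0.124). It was bright enough to be tested only through LZ63, an array of the higher group. Cox8b differed by 1.54 with a standard error of 0.49, from 289.95 ± 83.05 (SD, n = 4) to 1007.3 ± 717.1 (SD, n = 3) (limma, adjusted p = 0.13). Cox6a2 differed by 0.89 with a standard error of 0.53 (limma, adjusted p = 0.386). For each of them LZ62 lay among the values of LZ22 to LZ25, so the groups overlapped. Without LZ63 the differences were 1.37 for Cox7a1, 0.98 for Cox8b and 0.17 for Cox6a2, the last below those of Ndufaf4 (0.79) and other members. The median of the muscle isoforms was 1.54, and 0.98 without LZ63, while Cox6a1 and Cox7a2 differed by -0.01 and 0.12. Beside this, 9 of 9 tested cardiac markers, of 12 listed, had positive differences with a median of 2.61. So did 5 of 5 tested skeletal markers, of 13 listed, with 2.30 and 5 of 5 smooth muscle markers with 0.76. The skeletal markers Mylpf and Myl1 were bright enough to be tested only through LZ63, so the skeletal count and median rest partly on that array. Without LZ63 these medians were 2.06, 0.40 and 0.28. In limma 0 of these markers passed, with 1, 1 and 3 higher at an unadjusted p under 0.05, and their part in the result was not tested. Leaving out LZ22, LZ24 and LZ63 left LZ61 and LZ62 against LZ23 and LZ25. The median was then 0.03 over all 66 members and 0.71 over the muscle isoforms. LZ61, whose summed cardiac markers were second only to LZ63, was kept, and the cause was not tested.

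**Figure D5:**
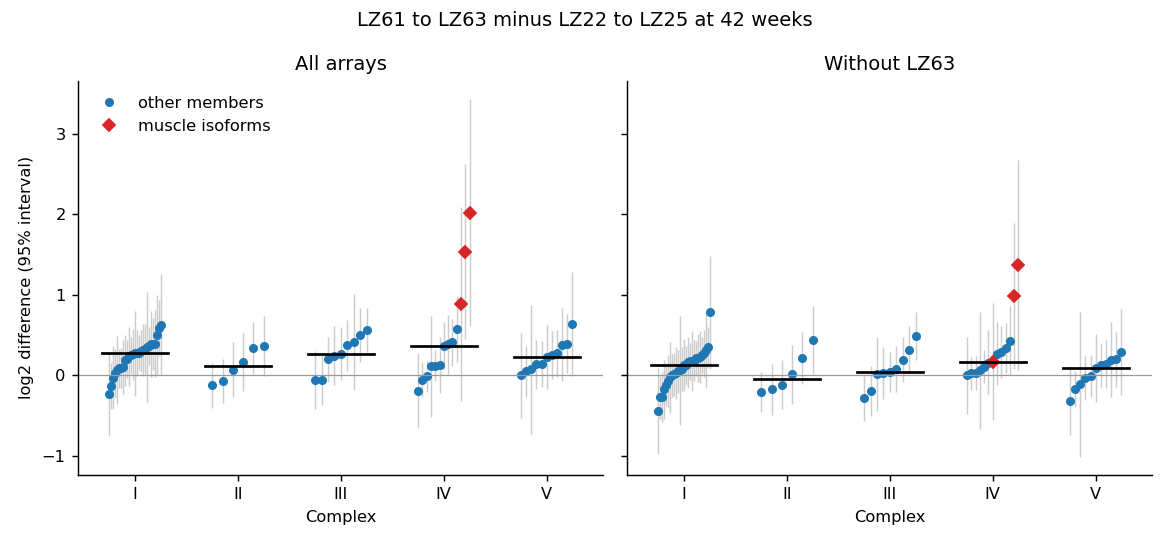
Log2 difference between LZ61 to LZ63 and LZ22 to LZ25 for each tested member by complex, with its 95% interval, from all arrays (left) and without LZ63 (right); black bars are medians and red diamonds the muscle isoforms. The median over all members moves from 0.26 to 0.10 when LZ63 is left out, and Cox7a1, Cox8b and Cox6a2 then stand at 1.37, 0.98 and 0.17.

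At 24 to 26 weeks, AJ1, AJ2 and AJ4 were compared with LZ2 and LZ3. Of the members 0 were called higher and 1 lower, against 1.03% and 1.15% of all genes. At an unadjusted p under 0.05, 2 were higher and 4 lower, against 9.58% and 7.92%. The log2 difference was positive for 23 of 66, with a median of -0.08 against 0.04 over all genes. Complex V had 10 of 11 members lower on the AJ arrays with a median of -0.15, and the exception was Atp5pb, a dim stalk subunit, at 0.89.

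The member called was Cox6a1, the isoform used outside muscle. It read 4899.1, 4693.8 and 4806.4 on the AJ arrays, 6742.1 and 7479.9 on LZ2 and LZ3, and 6414.4 to 7616.7 on all 7 arrays at 42 weeks. The AJ arrays thus lay below all LZ arrays of either time point, by 0.57 on the log2 scale against LZ2 and LZ3 with a standard error of 0.11 (limma, adjusted p = 0.0168). The call held in 16 of 20 alternatives and was lost without AJ2, AJ4, LZ2 or LZ3, where limma's adjusted p ran up to 0.184. With LZ arrays alone the difference of Cox6a1 between the time points was -0.003. Beside this, 7 of 7 tested lung markers had lower values on the AJ arrays, of which Sftpc (-0.85) and Scgb1a1 (-0.77) passed (limma, adjusted p = 0.0154 and 0.015). The summed lung markers, 8 of 10 measured, were 75610 to 79988 on the AJ arrays and 104340 to 127810 on LZ2 and LZ3, and their part in the result was not tested.

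Ndufv3, a small subunit of the NADH-binding arm of complex I, was higher on the AJ arrays, at 666.3, 755.3 and 783.8 against 476.3 and 464.8. Its difference of 0.64 missed the threshold (limma, adjusted p = 0.0788) and passed when LZ63 was left out of the fit (limma, adjusted p = 0.0335). Atp5c1, the gamma subunit that turns in the catalytic head, differed by -0.43 and also passed without LZ63 (limma, adjusted p = 0.0415). LZ63 is in neither group, so these differences themselves did not move. The probe set of Atp5c1 used here carries a design suffix. A second tested probe set of Atp5c1 read 2527.1, 2195.2 and 2491.6 on the AJ arrays. It read 2494.8 and 2893.0 on LZ2 and LZ3, so by it the groups overlapped. The muscle isoforms differed by 0.77 (Cox7a1), 0.05 (Cox6a2) and -0.11 (Cox8b), and none passed (limma, adjusted p = 0.668, 0.982 and 0.954).

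Of the genes that feed or surround the chain, 0 were called between the time points, and single genes ran from -1.12 to 0.63 on the log2 scale, both among the carriers. Of 19 tricarboxylic acid cycle genes 16 were tested, with 0 called and a median of -0.02. Of 18 genes of mitochondrial beta oxidation 15 were tested, with 0 called and a median of -0.02. Of 16 carriers, porins and energy transfer genes 9 were tested, with 0 called and a median of 0.05. Of 14 further assembly and electron transfer genes 5 were tested, with 0 called and a median of 0.08. At an unadjusted p under 0.05 in limma, these 4 lists held 1 tricarboxylic acid cycle gene lower, 1 carrier gene higher and 0 others. Of 18 regulators of mitochondrial genes 9 were tested, with 0 called and a median of -0.11, with 1 higher and 3 lower at an unadjusted p under 0.05 in limma, and the smallest p was that of Nrip1, a corepressor of oxidative genes, at -0.65 (limma, adjusted p = 0.0643). Between the 42-week ranges 0 genes of these lists were called, and at an unadjusted p under 0.05 in limma 3 tricarboxylic acid cycle genes were higher and 0 lower, 2 carriers higher and 1 lower, 2 regulators higher and 1 lower, 1 assembly gene higher and 0 beta oxidation genes either way. There the tricarboxylic acid cycle had 14 of 16 positive with a median of 0.22, and of 0.03 without LZ63. Slc25a4, the ADP/ATP carrier of heart and muscle, read 8002.4 on LZ63 and 3343.0 to 5140.0 elsewhere. Between the AJ and LZ arrays, Dlst, a subunit of the oxoglutarate dehydrogenase complex, was called higher at 0.63 (limma, adjusted p = 0.0203) and Etfb, which carries electrons from fat oxidation, lower at -0.75 (limma, adjusted p = 0.0449).

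The 9 members left untested for dimness were Ndufa1, Ndufa12, Ndufc2 and Ndufs4 of complex I, Cox5a and Cox8a of complex IV, and Atp5g1, Atp5j2 and Atp5k of complex V. Their signals ran from 7.6 (Cox8a) to 140.9 (Atp5g1) over all arrays. Respiring cells use most of these subunits, and how well these probe sets read them was not tested. A further 10 probe sets that match member symbols were annotated to several genes and left out.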

How the data were processed

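Total RNA from lung was extracted with Trizol and labelled with biotin for Affymetrix MG_U74Av2 arrays, per the labels' protocols. The authors deposited linear intensity values, 1 MAS5 signal for each probe set, as the submitters' processing notes name it. Its version, its scaling target and a genome build were not given in the sources used here. The 2% trimmed mean was 500.3 on every array, so intensity values were used as deposited, which hides a shift of most transcripts. All 12 columns matched a sample.

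Signals were log2-transformed without a pseudocount, and probe sets under the 40th percentile of mean log2 signal (about 108) were left out, leaving 7453. The brightest probe set stood for a gene, giving 5731 genes. The time points were fitted with limma 3.58.1 in R 4.3.3 (lmFit, eBayes with trend and robust, statmod 1.5.0). Tests were two-sided, and p-values were adjusted by Benjamini-Hochberg across the 7453 probe sets, with 0.05 as the threshold. The title ranges were contrasts in a single fit with 4 groups. Run day was also fitted as a random block (consensus correlation 0.227). The fit was tested on simulated data. Alternatives were other normalizations, filters, moderation, subsets of arrays, an exact permutation test and leaving out each array. The number of arrays limits the precision.

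The members, gene lists, naming rule and tests were chosen with earlier results of these data known. Named genes are the muscle isoforms and their counterparts, members called, the extremes of each complex between the time points and between the 42-week ranges, the 3 smallest p in each direction between the time points, members whose probe sets disagree, and pathway genes called or of smallest p. Others named for their values on LZ63, for a call under an alternative or as an exception in a count (such as Ndufb8, Ndufab1, Ndufv3, Atp5c1 and Atp5pb) were chosen after their values were seen.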

Additional observations from a re-analysis of the deposited data

Results flagged for a closer look

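Each value here lay far from the other samples of its group, by the ratio of its gap to the group's range. Of 62 groups examined 10 held such a value, 6 of them on LZ63, and chance gives about 1 in 20 groups. The groups share genes and arrays, and some of the genes were picked as extremes. The count can therefore not be set against that rate. At 42 weeks Cox6a2 read 5644.5 and Uqcrh 4912.7 on LZ63. On the same array the median over members relative to each gene's own median was 0.521 on the log2 scale for all members, 0.537 for complex I, 0.64 for complex III and 0.547 for complex V. At 24 to 26 weeks Ndufa7 was high on LZ2 (6108.3), Ndufb2 was high on LZ3 (3985.9), Cox7b was low on LZ2 (1466.6) and Atp5md was low on AJ4 (2161.8). LZ63 also carried the skeletal muscle and squamous epithelial markers described above, not all of which were high there, and their part in these values was not tested.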

How the results depend on the processing

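Between the time points the count of members called was 5 with AJ arrays alone at 24 to 26 weeks, where 132 of all 5731 genes were called higher and 190 lower, and ran from 0 to 2 as each array was left out (2 without LZ2). Under the other settings, run day block included, it was 0. The exact permutation test also gave 0, but its smallest p of 0.00126 is too large to pass adjustment here, so it says nothing about stability. Between the 42-week ranges the count of 1 became 0 with equal medians, without a filter, without trend and robust, and without LZ22, LZ24 and LZ63, and ran from 0 to 4 as each array was left out (4 without LZ62). For the fits without LZ2 or LZ62 no count over all genes was made, so the share of members there has no background. Between AJ and LZ arrays the count of members called became 3 without LZ22, LZ24 and LZ63, where 126 of all genes were called higher and 137 lower. As each array was left out it ran from 0 to 3 (3 without LZ63, where 122 of all genes were called higher and 148 lower, against 59 and 66 with all arrays). The median over members became 0.032 between the 42-week ranges without LZ22, LZ24 and LZ63, -0.178 between AJ and LZ with equal medians, and -0.131 to 0.032 as each array was left out (highest without LZ3). The median of the muscle isoforms between the time points became 1.238 with LZ61 to LZ63 alone at 42 weeks. The cause was not tested.

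Differences that turned between the time points were those of Cox6a2 (-0.287) and Cox7a1 (-0.785) with LZ22 to LZ25 alone, Cox7a1 (-0.226) with AJ arrays alone, Cox6a1 (-0.003), Cycs (0.063) and Cox7b (0.051) with LZ arrays alone, and Cycs (0.133), Cox7b (0.099) and Atp5mpl (0.099) with LZ61 to LZ63 alone. Between the 42-week ranges they were Cox6a2 (-0.346), Cox6b2 (0.221) and Atp5o (-0.58) without LZ22, LZ24 and LZ63, and Atp5o (-0.077) with equal medians. Between AJ and LZ they were Cox6a2 (-0.043) with equal medians and Cox7a2 (0.125) with quantile normalization. None of these passed the test. As each array was left out, Cox6a2 ran from -0.23 to 0.266 and Cox7a1 from -0.328 to 0.397 between the time points. Cox6a1 ran from -0.062 to 0.024, Uqcr10 from -0.286 to 0.107, Cox6b2 from -0.295 to 0.015 and Atp5o from -0.314 to 0.217 between the 42-week ranges. Cox7a2 ran from -0.071 to 0.06 and Cox8b from -0.318 to 0.095 between AJ and LZ.

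LZ2 or LZ3 left out leaves 1 LZ array, assumed to vary like the others. No paired analysis was possible because the groups share no replicate numbers in the labels. Dim probe sets, Cox7a1 among them, have noisy MAS5 values. Run day and title range cannot be told apart.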

Other observations

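LZ24 was the lowest of the 12 arrays for 19 of 66 members and the highest for 2, while over all 5731 tested genes it was lowest for 573. Members lowest there include Atp5l, Atp5a1 and Cox6c. AJ4 was lowest for 9 members, LZ62 for 8, and LZ61 and LZ25 for 1 each. The erythroid enzyme Alas2 was highest on LZ24, at 15210.1 against 1426.2 to 4557.7 on the others.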
